A study of Mus musculus with 4 samples.

Results

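The line KY1.1 was examined at day 28 of differentiation with and without doxycycline (dox), on 2 of the 4 arrays of the study, chosen by the cell line label. KY1.1 is a mouse embryonic stem (ES) cell line that carries a c-Myc transgene under a tetO promoter, which dox induces, and a luciferase gene under the Bmal1 promoter as a reporter of the circadian clock; both arrays share these alleles. The group without dox (1 array) was differentiated for 28 days in medium free of the drug. The group with dox (1 array) was differentiated for 28 days in medium with 40 ng/ml, renewed with each change of medium. The remaining 2 arrays hold the line called PER2Luc, with the same transgene and a PER2 luciferase reporter, at day 28 without dox or with 500 ng/ml; they differ from KY1.1 in line, concentration and detector gain of the scan (30 against 36). Differentiation ran through embryoid bodies that were plated and grown on for weeks, so each array reads the RNA of a mixed culture, in which fewer cells of a type and less RNA per cell cannot be told apart. A culture with dox but no transgene was not analysed here, so the drug and the transgene cannot be told apart. With 1 array per group there was no replicate and no test, and every difference below is a size.

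In the tetO system a transgene is placed behind operator sequences that a dox-dependent activator binds, so the drug sets when the gene is transcribed. c-Myc is a transcription factor that drives growth, ribosome production and cell division, and it is normally lowered when ES cells leave the pluripotent state. ES cells have no running circadian clock; the molecular oscillator, a feedback loop in which Bmal1 and Clock drive the Per and Cry genes that inhibit them, appears as the cells differentiate. The series title names Kpna2, an importin that carries proteins into the nucleus, in this transition, and cells in which c-Myc stays induced during differentiation are one way to ask about that link.

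The chip carries 27456 spots in 24 blocks, of which 23472 probes for mouse transcripts were usable. The probes bear IDs with no gene name or sequence, so the level of c-Myc, Kpna2, the clock genes and the markers of cell types were not analysed here, and a probe stands below for an unnamed transcript. Intensity is the median brightness of a spot in scanner units. The 2736 BLANK spots of the chip, which hold nothing, read 39.0 ± 1.23 (SD over spots) on the array without dox and 39.5 ± 1.25 on the array with dox, and a probe was called above background when it exceeded that mean by more than 2 SD, that is 41.5 and 42.0 units. By this level 20859 probes (88.9%) were above background without dox and 19780 (84.3%) with dox. Spots labelled as holding no probe passed it in 22.6% of 1102 cases without dox and 44.7% with dox, so a spot just over the level on the latter array need not hold a transcript. Both arrays were scanned at the same detector gain. The array with dox was the dimmer one for most probes: over the 19458 probes above background on both, the median ratio of intensity above BLANK, unscaled, was 0.698, and 80.9% of these probes were lower, while the summed intensity was 94.5% of that without dox.

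Among bright probes, switching by unscaled intensity was almost all in one direction, from on to off. The counts here set each array against its own BLANK spots. As the array with dox was dimmer for most probes, a level in units is not the same on both arrays. What part this had in the counts was not tested. On crossing the background level alone, 1401 probes were above it only without dox and 322 only with dox. Most of these were dim on both arrays. The median intensity above BLANK on the bright array was 4.96 units for the former (25th to 75th percentile 2.96 to 7.96). For the latter it was 2.50 (2.50 to 3.50). The SD of the BLANK spots was 1.23 units without dox and 1.25 with dox. The asymmetry was larger among probes that were bright to begin with. Of 10899 probes that stood at least 50 units above BLANK without dox, 48 (0.44%) were not above background with dox. In the reverse direction 9181 probes stood at least 50 units above BLANK with dox, and 0 of them were at background without dox. From a level of 20 units, 120 probes were switched off and 1 switched on, and the brightest probe seen only with dox read 60. From 200 units, 19 were switched off and 0 switched on.

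**Figure D1:**
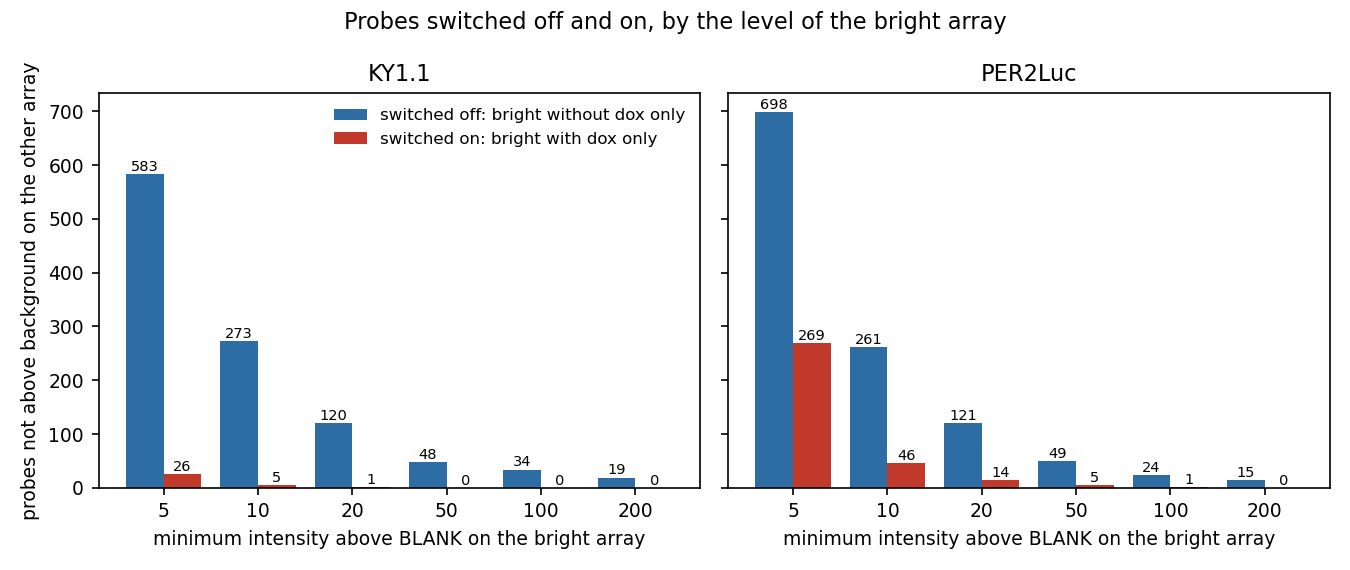
Bars count the probes not above background on 1 array of a line (vertical axis) against the minimum intensity above BLANK on the other array of that line (horizontal axis, scanner units), in KY1.1 on the left and PER2Luc on the right. At 50 units or more, 48 probes were switched off and 0 on in KY1.1, and 49 off and 5 on in PER2Luc.

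The direction of the split was the same with other levels of background and with spot means. With BLANK mean plus 3 SD, 92 probes were switched off from 50 units and 0 on, and with a level from the spots without a probe the counts were 113 and 0. With spot means in place of medians they were 126 and 2. PER2Luc gave 49 (0.461%) off and 5 (0.0513%) on by the same rule. The arrays without dox of the different lines, which share no treatment difference, gave 9 probes bright in KY1.1 and at background in PER2Luc, and 2 in the reverse direction. Whether KY1.1 and PER2Luc differ in these counts was not tested, since neither has a replicate. With a change of at least 2-fold required besides the crossing, 42 probes were switched off in KY1.1 and 0 on. With the intensity around each spot subtracted for that fold, these counts were 24 and 0.

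The rule fixes a start of at least 50 units and an end at background for the 48 probes, and their values describe where within it they lay. Without dox their spot medians ran from 91 to 1026, with a median of 197. With dox all 48 lay between 37 and 41, with a median of 40, so the groups of values did not overlap, as the rule for choosing them requires. By starting level, 14 of 2689 probes between 50 and 100 units above BLANK were switched off (0.521%), 15 of 2750 between 100 and 200 (0.545%), 15 of 2323 between 200 and 400 (0.646%) and 4 of 2056 between 400 and 1200 (0.195%). The share was thus between 0.521% and 0.646% up to 400 units and smaller above. Because the dark side gives only a bound, each fold is a lower limit: with the BLANK mean subtracted, these probes were at least 10.9-fold to at least 269-fold lower, with a median bound of 36.9-fold. The bound sets the bright array against the dimmest probe still above background on the other array. On the scale of the normexp correction with its offset of 50, which pulls dim values together, the same bounds ran from 1.65-fold to 18.7-fold.

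PER2Luc arrays played no part in choosing these 48 probes, and part of them behaved alike there. Of the 48, 31 stood at least 50 units above BLANK in PER2Luc without dox; 28 of those 31 were at least 2-fold lower with dox. Of all 48, 28 (58.3%) were at least 2-fold lower in PER2Luc, where 4.02% of all evaluated probes were. Another 2 were at least 2-fold higher, where 3.42% of all were. These shares over all probes are not matched for brightness, while the 48 were chosen bright. In KY1.1, 3.07% of all evaluated probes were lower, and 10.5% in the brightest of 10 equal classes. A share over equally bright probes in PER2Luc was not counted. By the rule of 50 units, 17 probes were switched off in both lines, 35.4% of the KY1.1 set and 34.7% of the 49 probes of PER2Luc. The other 17 of the 48 were under 50 units above BLANK in PER2Luc already without dox. From that level the scale with the offset can hardly give a 2-fold loss, and 0 of the 17 were lower by that rule. The 2 higher probes were among these 17, and went from 40 to 118 and from 35 to 128. The share of 58.3% is over all 48, with these 17 included. The spot medians of the 48 in PER2Luc ran from 18 to 4557 without dox, with a median of 158, and from 18 to 128 with dox, with a median of 22.

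**Figure D2:**
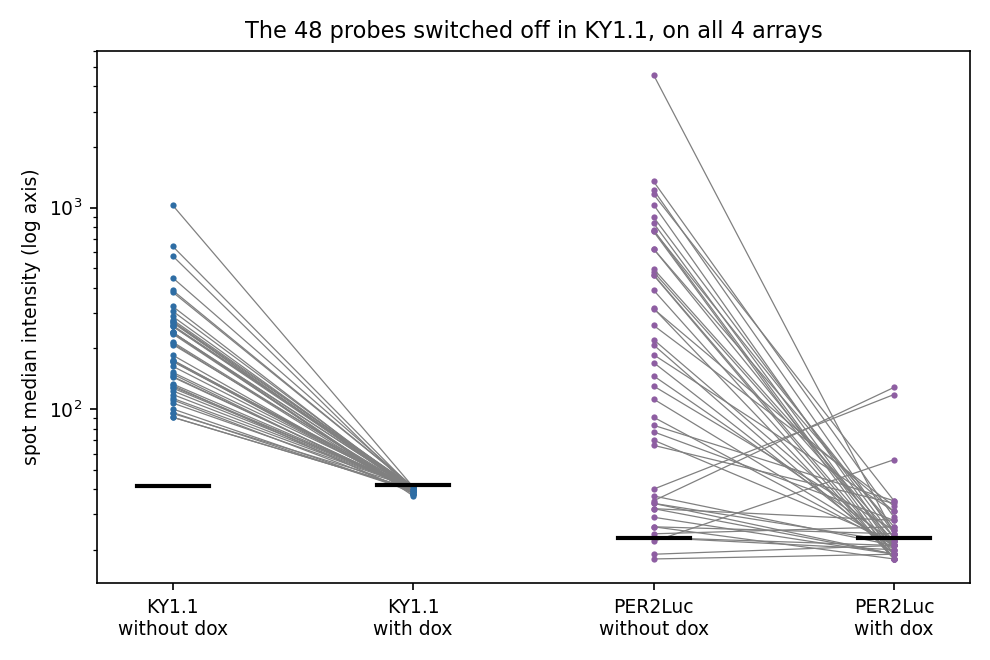
Each line joins the spot medians of 1 probe (log axis, scanner units) without and with dox, in KY1.1 on the left and PER2Luc on the right, for the 48 probes switched off in KY1.1; black bars mark the background level of each array. All 48 lie between 37 and 41 with dox in KY1.1, while in PER2Luc some start at background and 2 are at least 2-fold higher with dox.

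M300001817 was the brightest probe to be switched off. It read 1026 without dox, rank 1319 of all probes, and 41 with dox, just under the level of 42.0. Its loss was at least 18.7-fold after normexp and at least 269-fold with BLANK subtracted. With the intensity around the spot subtracted, its fitted log2 fold, which is no bound, was -1.43. In PER2Luc it went from 4557 to 24, a spot barely above the background of 22.8.

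M200003295 had the largest negative fold of all probes. It was the probe of rank 9 in brightness without dox, at 31107, and read 302 with dox, rank 3472. It was 82.5-fold lower on the quantile scale and still above background. In PER2Luc its values were 41210 and 594.

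The probes with the largest positive folds were both present before dox. M200000925 read 262 without dox and 6515 with dox, 26.9-fold higher, and moved from rank 5041 to rank 217; in PER2Luc it read 104 and 9160. M200000936 read 139 without dox and 1038 with dox, 9.78-fold higher, and in PER2Luc 122 and 422, which is 3.07-fold higher. As no probe was switched on by the 2-fold rule, the place reserved for one went to the second-largest positive fold. With IDs alone, none of these 4 transcripts can be tied to a gene here.

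Losses also outweighed gains among the large changes, though at 8-fold not with the intensity around each spot subtracted. After normexp correction with an offset of 50 and quantile normalization, 650 of 21181 evaluated probes (3.07%) fell short of their level without dox by 2-fold or more, and 354 (1.67%) exceeded it by as much; a probe was evaluated when the brighter of the KY1.1 arrays was above background. At 4-fold, 131 were lower and 14 higher, and at 8-fold 36 were lower and 2 higher. The middle of the distribution was narrow and even, with a median log2 fold of 0.03 and 25th and 75th percentiles of -0.13 and 0.17, while the lowest and highest 1% of probes lay beyond -1.64 and 1.14. Within the calls, the median log2 fold was -1.39 for lower and 1.19 for higher probes. Of the 650 lower probes, 42 were switched off (0.198% of the evaluated probes), and all 42 are among the 48 above; of the 354 higher probes, 0 were switched on. Without the offset, small differences at background count as 2-fold, and BLANK subtraction gave 880 probes switched off and 322 on. By comparison, the positive controls were 2 sequences with 24 spots each. Over matched spots, the log2 ratio between the arrays had an SD of 0.12 and 0.11, and unscaled means of -0.75 and 0.38. The SD covers differences between bright spots of one array pair, and not between dim spots or between cultures.

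The balance of 2-fold calls depends on the scale, and that of the large changes on whether the intensity around each spot is subtracted. With the BLANK mean subtracted and no offset, 2557 probes (12.1%) were lower and 1961 (9.26%) higher, so higher probes were 43.4% of the calls against 35.3% with the offset. With no offset and median scaling the balance turned, with 1581 lower and 1952 higher (55.3%), and with the intensity around each spot subtracted it was 663 and 603 (47.6% higher). At 8-fold, BLANK subtraction gave 345 lower and 38 higher, normexp without offset and median scaling 175 and 16, and the values deposited by the authors 276 and 17. Local subtraction alone turned this split, to 21 lower and 34 higher. At 4-fold it gave 103 lower and 95 higher, a near balance. Median scaling in place of quantiles moved the median log2 fold from 0.03 to 0.12 with the offset, and to 0.20 without it, so 2-fold calls near the threshold hang on where the centre is set.

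**Figure D3:**
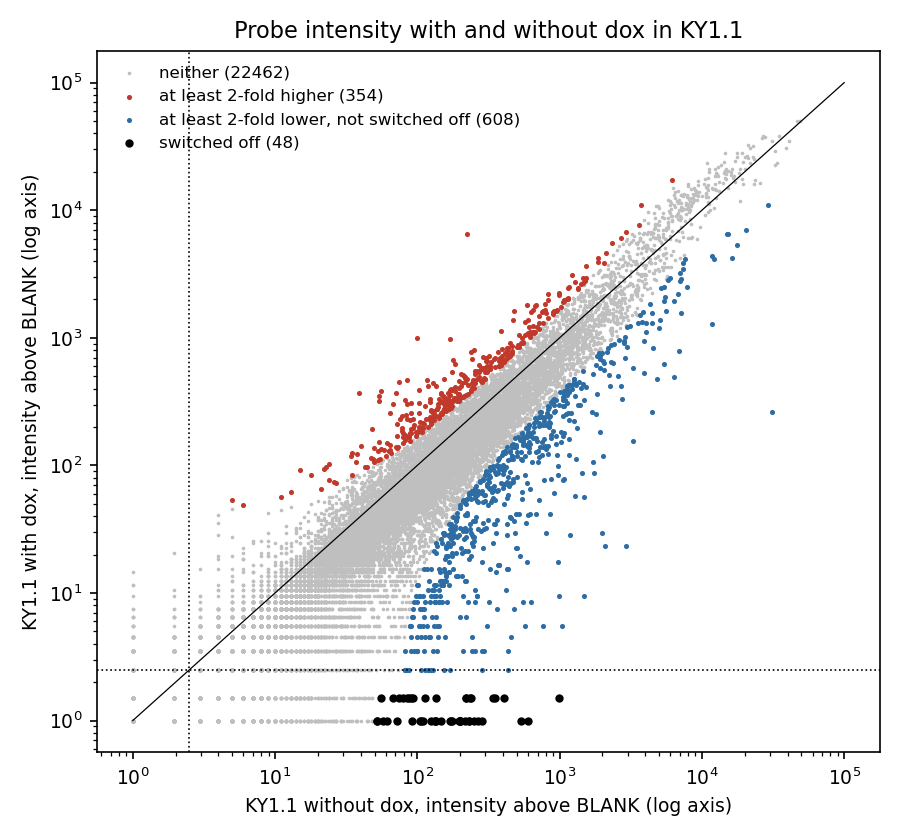
Each point is a probe, with its intensity above the BLANK mean without dox (horizontal, log axis, scanner units) and with dox (vertical, log axis); values under 1 are drawn at 1, dotted lines mark the background level and the diagonal equality. The 48 switched-off probes lie in the lower strip under the dotted line, and the space to the left of the vertical dotted line holds 0 probes above 50 units.

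On the scale with the offset, probes called lower started bright and spread over the whole range below. The 650 had a median of 383 units above BLANK without dox (25th to 75th percentile 190.0 to 868) and of 60.0 with dox (13.5 to 183). The median ratio of these unscaled intensities was 0.163. With dox 139 of the 650 stood under 10 units above BLANK, while 141 of the set began at 1000 units or more and 40 ended there. The 354 higher probes mostly began above the middle of the evaluated probes, at a median of 195 units (105 to 431). The median of all evaluated probes was 55.0 units without dox. The higher probes reached 405 (234 to 798), with 74 of them at 1000 units or more with dox against 29 without. Their median starting percentile was 73.8, against 31.9 for the probes called higher with BLANK subtraction and no offset. For the lower probes it was 84.6. By the mean of both arrays the order of the sets turned, with 74.1 for lower and 82.3 for higher probes. Only 2 of the 354 began under 10 units.

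The starting level of the deepest losses differed with the scale. On the scale with the offset, which admits an 8-fold loss only from a bright start, the 36 probes at least 8-fold lower started between 409 and 31068 units above BLANK, with a median of 1110, and ended at a median of 23.5, with 4 of them not above background. With BLANK subtraction and no offset, the 345 probes at least 8-fold lower started at a median of 108 units (25th to 75th percentile 39.0 to 255), and 151 of them were not above background with dox. The 14 probes at least 4-fold higher started between 39.0 and 481 units, with a median of 79.0, and ended at a median of 458. In PER2Luc, 31 of the 36 probes were also at least 2-fold lower, where 4.02% of all evaluated probes were. Of the same 36, 3 changed by less than 2-fold and 2 were at least 2-fold higher, where 3.42% of all were. Of the 14, 11 were at least 2-fold higher in PER2Luc and 3 changed by less. These shares over all probes are not matched for brightness, and shares over equally bright probes were not counted.

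The starting level at which probes were called lower moved with the offset. In 10 equal classes of about 2118 probes by intensity without dox, the normexp scale with its offset of 50 called 0 probes lower in the 5 dimmest classes, whose upper edge lies at 55.0 units above BLANK, and 22, 102, 129, 174 and 223 in the classes above. The lowest start of any lower call was 72.0 units. The rise over the brighter classes was flatter when probes were sorted by the mean of both arrays. On that order and the same scale, 61, 106, 112, 113, 127 and 130 were lower in the fifth to the brightest class. With BLANK subtraction and no offset, the classes by intensity without dox held between 225 and 322 lower probes each. That is a share of 10.6% to 15.2%, with 11.6% in the brightest class and 10.9% in the fifth. This even profile holds for that scale and order alone. With normexp, no offset and median scaling, 41 and 85 probes were lower in the 2 dimmest classes and 140 in the brightest, and with BLANK subtraction sorted by the mean of both arrays 686 were lower in the dimmest class and 140 in the brightest.

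Higher probes had another profile. On the scale without offset, the share at least 2-fold higher was 28.4% in the dimmest class, 10.0% in the second, between 6.61% and 9.35% in the third to the seventh and 6.13%, 4.34% and 3.31% in the 3 brightest. In the brightest class 70 were higher and 245 lower. The dimmest class lies between -2.04 and 5.96 units, so its folds include spots within the spread of the background, and the order itself came from 1 of the arrays compared. Sorted by the mean of both arrays on the same scale, the brightest class had 114 higher and 140 lower, and the eighth class 204 higher and 152 lower, which turns the split seen there by starting level (130 and 225). Under median scaling without offset the brightest class also turned, with 403 higher and 140 lower, so the direction in which the most abundant transcripts lean differed between scalings.

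**Figure D4:**
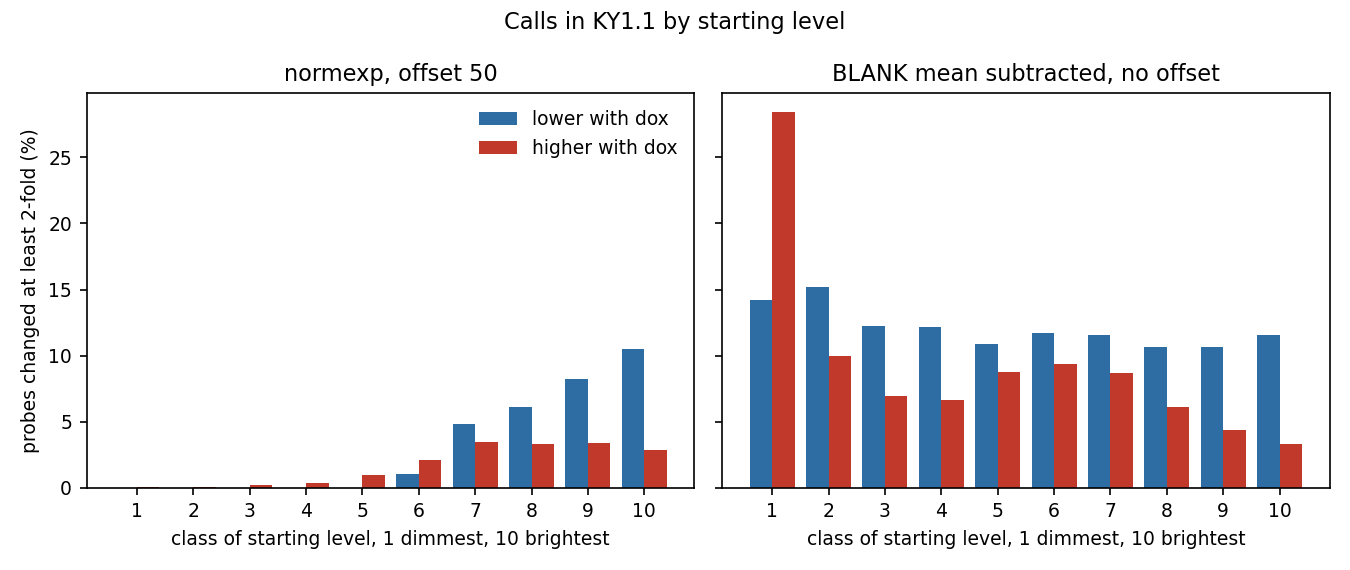
Bars give the percentage of probes at least 2-fold lower or higher with dox in KY1.1 (vertical axis) for 10 equal classes of intensity without dox (horizontal axis, 1 dimmest), with the normexp correction and offset of 50 on the left and BLANK subtraction without offset on the right. Lower calls are 0 in classes 1 to 5 on the left and 10.6% to 15.2% in every class on the right.

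Ranks, which need neither scaling nor offset, gave the same asymmetry. Among the 21181 evaluated probes, 548 moved down by 25 percentile points or more in the order of brightness and 86 moved up by as much. By 50 points or more, 88 moved down and 0 up. Of the 2120 probes above the 90th percentile without dox, 1755 (82.8%) were above it with dox, and 12 had dropped to the 50th percentile or below; 0 made the reverse move. In PER2Luc, 107 moved down and 18 up by 50 points or more, and 35 and 4 probes made the full moves. Between the lines without dox, 23 probes were lower and 4 higher in PER2Luc by 50 points or more. Moves of a few probes over many ranks displace others by a few, so the counts of large moves need not balance.

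The lower probes held a sizeable part of the signal. The 650 carried 9.55% of the summed intensity above BLANK without dox and 2.64% with dox, while the 354 higher probes went from 1.81% to 4.12%. The direction of both shifts follows from how the probes were chosen, so only the sizes are read here. The 42 switched-off probes among the 650 had little weight in the summed intensity, with 0.12% without dox. The remaining 20177 evaluated probes went from 88.6% to 93.2%. In PER2Luc, the probes called in KY1.1 showed shares of 10.8% and 3.16% for the lower and 2.06% and 4.72% for the higher. Among the 10 brightest probes without dox, 5 were among the 10 brightest with dox and 1 was at least 2-fold lower. Among the 50 brightest, 34 kept their place in that group, 7 were at least 2-fold lower and 0 higher, and of the 1000 brightest 102 were lower and 19 higher. Under median scaling more of the brightest class were higher (128 against 61), so counts of rises at the top moved with the scaling.

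Position on the chip moved with the folds in KY1.1. The median log2 fold was -0.04 in block 1 and 0.12 in block 24, the lowest and highest of all blocks. The share of lower probes was 5.61% and 1.61% in these blocks; 10 of 909 evaluated probes were higher in block 1 and 36 of 869 in block 24. Blocks 1 to 12 held 366 of the lower and 150 of the higher probes among 10611, and blocks 13 to 24 held 284 and 204 among 10570. Of the 48 switched-off probes, 34 lay in blocks 1 to 12, which held 5580 of the 10899 probes from 50 units, and 14 in the others; in PER2Luc these numbers were 21 and 28. The area around a bright spot read a median of 41.9% of the spot's own intensity in blocks 1 to 12 without dox and 11.2% in blocks 13 to 24, against 30.6% and 4.06% with dox. For the 48 probes that figure was 44.7% without dox. For all probes from 50 units it was 26.4%. On the chip 2 of the 48 adjoined another of them. With the median fold of each block subtracted, 680 probes were lower and 309 higher, and at 8-fold the split was 36 to 2. That subtraction moves the centre of each block by little and leaves the surroundings of the spots as they are. What part position or the surroundings had in the calls and in the switched-off probes was not tested.

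**Figure D5:**
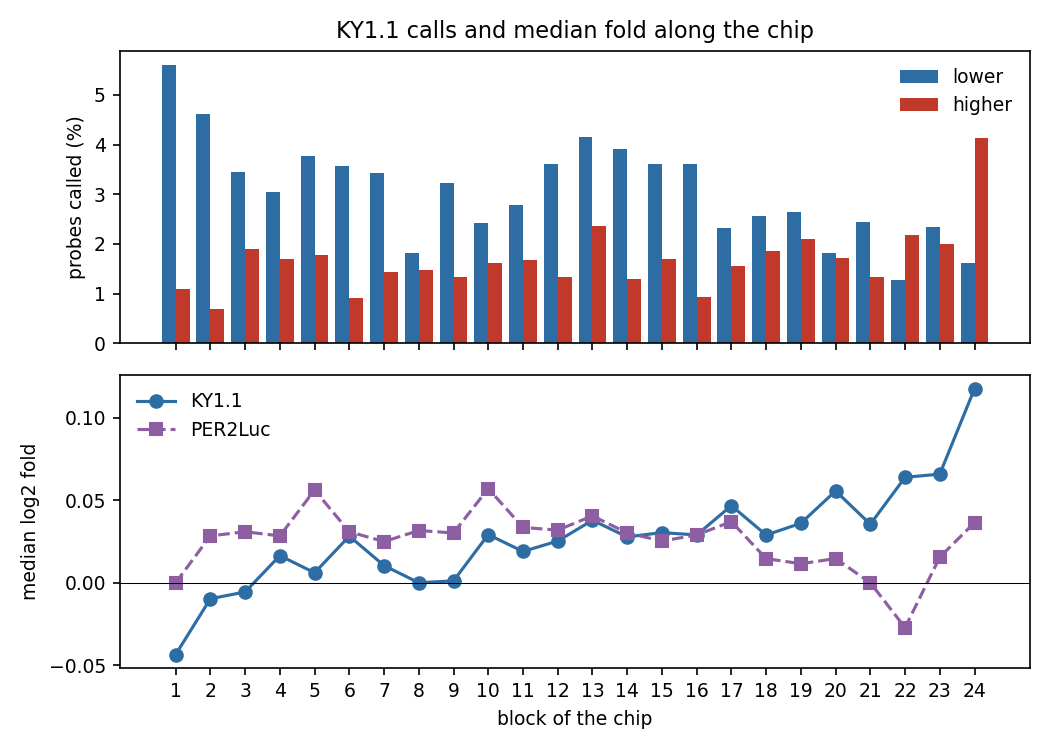
The upper panel gives the percentage of evaluated probes at least 2-fold lower or higher with dox in KY1.1 (vertical axis) in each of the 24 blocks of the chip (horizontal axis); the lower panel gives the median log2 fold per block for KY1.1 (circles) and PER2Luc (squares). In KY1.1 the median goes from -0.04 in block 1 to 0.12 in block 24.

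The ID series of the probes, given by the first characters M2, M3 or M4, differed in brightness and in calls. Probes of the M2 series had a median of 101 units above BLANK without dox, those of M4 one of 31.0, and M3 lay between them. On the normexp scale 4.30% of M2, 2.34% of M3 and 2.42% of M4 probes were lower with dox, and 1.78%, 1.65% and 1.57% were higher. Without offset the lower shares were 14.3%, 11.2% and 10.4% and the higher shares 8.10%, 9.13% and 10.6%, so that higher probes were as frequent as lower ones in the dimmest series. The switched-off set held 20 of 7581 evaluated M2 probes, 10 of 6230 M3 and 18 of 7370 M4, against 48 of 21181 in all. How many probes of each series stood at 50 units or more without dox was not counted.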

How the data were processed

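Per the labels' protocols, amplified RNA carrying Cy5 was hybridised to a mouse chip, with 1 array per group. The deposited scanner files give spot intensity on a linear scale; per the file headers no normalization or background subtraction is recorded. The authors also deposited a table of intensity values with medians of 25.0, of which 1655 and 2948 entries of the KY1.1 columns are empty; its steps are not given in the sources used here, and its scale was read from the values as linear and BLANK-subtracted.

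Spot medians were corrected with limma's normexp (limma 3.58.1, R 4.3.3, offset 50) over all spots. Control spots were then left out, with 1 spot marked bad and its probe, and 1 ID with 2 spots was averaged. Quantile normalization used all 4 arrays, and folds are differences of log2 values. BLANK subtraction used a floor of 1 unit. Other alternatives are named where they bear on a result. The steps were tested on simulated data in which only bright probes were changed, so that test does not cover dim probes or switched-off calls. The simulated arrays did not differ in brightness and had no gradient of fold along the chip. The 4 named probes were the largest positive and negative fold, the brightest switched on (or the next largest rise) and the brightest switched off. Planned gene lists could not be placed on unnamed probes. The counts, levels and lists were chosen with earlier results of these data known, and the level of 50 units after the values were seen. The number of arrays limits the precision.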

Additional observations from a re-analysis of the deposited data

Results flagged for a closer look

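Some values lay outside the main measurement or pointed in opposite directions in the lines. Of the spots that carry no probe, 44.7% passed the background level in KY1.1 with dox and 22.6% without. Unscaled, the 24 spots of positive control 3 gave a mean log2 ratio of intensity above BLANK, with over without dox, of 0.38, and those of positive control 2 gave -0.75. At the 2-fold rule, 25 of the 650 probes lower with dox in KY1.1 were higher with dox in PER2Luc, where 3.42% of all evaluated probes were. Of the 354 higher probes, 1 was lower in PER2Luc, where 4.02% of all were. Of the 48 probes switched off in KY1.1, 2 were at least 2-fold higher in PER2Luc, to be set against the same 3.42%. The 25 of 650 and the 2 of 48 lie near that share over all probes, so they are not read as a trait of these sets. None of these differences between the lines was tested.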

How the results depend on the processing

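No paired analysis was possible because each group holds 1 array, and for the same reason no replicate could be left out. Each setting below changed the value named; unless its construction shows it, the cause was not tested. With normexp and no offset, 1191 probes were higher, 1814 lower, 404 switched off and 106 on; the median starting percentile was 60.5 for lower and 52.6 for higher probes, the SD of log2 folds 0.82 (0.47 with the offset) and the share of higher calls 39.6%. With BLANK subtraction these were 1961, 2557, 880, 322, 45.4, 31.9, 1.02 and 43.4%. With the authors' values they were 1093, 2335, 498, 44, 48.8, 61.3, 0.88 and 31.9%. Local subtraction gave 603 higher and 24 switched off, percentiles of 89.2 and 85.4, and 47.6% higher. Spot means gave 88 off and 2 on, with 82.8 and 68.7. Median scaling put higher probes at 84.1 and at 31.7% of calls. A 1.5-fold threshold gave 1446 higher, 1561 lower, 68 off, 81.2 for lower probes and 48.1%; a 3-fold one 43, 230, 29 off, 87.8 and 65.1, and 15.8%. BLANK mean plus 3 SD gave 72 switched off and the level from spots without a probe 82. Crossing the background alone gave 1401 off and 322 on. Without a filter on dim probes the percentiles were 86.1 and 76.3, and by the mean of both arrays 74.1 and 82.3. The following were chosen after seeing the data. No offset with median scaling gave 1952, 1581, 385, 212, 55.5, 62.5, 0.83 and 55.3%, the latter a reversal of the balance. BLANK subtraction with median scaling over probes above background on both arrays gave 2183, 2514, 886, 322, 38.6, 57.1, 1.02 and 46.5%. Subtracting block medians gave 31.2%, and the 50-unit crossing rule 48 off and 0 on. The 3 named probes above background on both arrays kept their direction under all 10 alternatives, with log2 folds of 4.33 to 5.54 (M200000925), 2.65 to 3.998 (M200000936) and -7.00 to -6.20 (M200003295); M300001817 has only a bound with dox. Dim probes are limited by the background, where 1 or 2 intensity units decide a crossing.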

Other observations

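Some of the deepest losses in KY1.1 had another direction or no 2-fold change in PER2Luc. The following probes were chosen after their values were seen and are given without IDs. The third-deepest loss in KY1.1, from a spot median of 2140 without dox to 63 with dox (26.9-fold lower), stood against 217 without dox and 1697 with dox in PER2Luc (6.96-fold higher). The fifth-deepest went from 2034 to 69 in KY1.1 (23.3-fold lower) and from 449 to 563 in PER2Luc. In all, 4 probes were at least 4-fold changed in opposite directions in the lines. Line and concentration of dox cannot be told apart in these values.

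Among the larger positive folds of KY1.1, some changed by less than 2-fold in PER2Luc. All 3 of these among the 14 largest positive folds are given here. They went from 78 to 410, 95 to 419 and 110 to 406 in KY1.1 (6.41-fold, 5.53-fold and 4.77-fold higher), and from 88 to 123, 112 to 104 and 138 to 133 in PER2Luc.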
